A study of Mus musculus with 36 samples.

Results

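The adult sarcomere genes Tnnt2, Mybpc3, Myl2 and Actc1 were followed through the open chromatin of nuclei from the mouse left ventricle after myocardial infarction. Their regions were taken from 9 deposited lists of ATAC-seq regions by position alone, as every region that overlapped a fixed window around each gene in the mm9 build. The windows were chr1:137700000-137780000 for Tnnt2, chr2:90930000-91000000 for Mybpc3, chr5:122510000-122590000 for Myl2 and chr2:113850000-113920000 for Actc1. They held 92 of the 122759 listed regions, with 25 in the Tnnt2 window, 26 in the Mybpc3 window, 31 in the Myl2 window and 10 in the Actc1 window. By day, 23 of these regions were listed on day 4, 36 on day 7 and 33 on day 14.

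ATAC-seq marks accessible DNA by the sites where a transposase inserts sequencing adapters, and the tags of a region count the sequenced reads assigned to it. The study compared left ventricle of sham-operated FVB/N mice with the border zone, the surviving muscle beside an infarct, on days 4, 7 and 14 after surgery. Each day had 1 sham and 1 border zone library, so the 6 libraries include no replicates within a day. On day 4 both libraries came from Cdh5-Cre; Sun1-sfGFP/- mice, a Cre line driven by an endothelial promoter, and heart muscle nuclei were enriched by a pulldown of PCM1, a protein around cardiomyocyte nuclei. The labels of day 4 also name a GFP sort, and which of these nuclei entered the libraries is not clear from them, so the values of day 4 may not come from heart muscle nuclei alone. On days 7 and 14 both libraries came from Myh6-MerCreMer;nTnG mice, in which a heart muscle promoter drives a tamoxifen-dependent Cre that turns on nuclear GFP. These mice, sham and infarcted alike, received tamoxifen at 20 mg/kg before surgery, and 50000 sorted nuclei entered each library. The labels give no age and do not say whether a library came from 1 animal or a pool. The series also holds 30 RNA-seq samples, not used here.

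The sarcomere is the contractile unit of muscle, in which thick filaments of myosin slide along thin filaments of actin. Actc1 encodes cardiac alpha-actin, the backbone of the thin filament, and Tnnt2 encodes cardiac troponin T, which anchors the calcium-sensing troponin complex to tropomyosin on that filament. Myl2 encodes the regulatory light chain of ventricular myosin, and Mybpc3 encodes cardiac myosin-binding protein C, which lies along the thick filament and modulates its crossbridges. All 4 are highly transcribed in the adult ventricle, and Myl2 is a usual marker of ventricular muscle.

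The promoters of the 4 genes are shown because their windows carried fewer border zone than sham tags together on all 3 days. Each sequence of 300 bases ends 50 bases past an annotated start in RefSeq, build GRCm38.p6, on the strand of the gene. For Tnnt2 and Myl2, which have a further start in that table, the one nearest the 5′ end of the gene is shown. Capitals mark matches on either strand to 4 motifs: GATAA, which GATA factors bind, CATTCC, which TEAD factors bind, the CArG box of serum response factor and the MEF2 site. Overlapping matches were all counted.
Tnnt2: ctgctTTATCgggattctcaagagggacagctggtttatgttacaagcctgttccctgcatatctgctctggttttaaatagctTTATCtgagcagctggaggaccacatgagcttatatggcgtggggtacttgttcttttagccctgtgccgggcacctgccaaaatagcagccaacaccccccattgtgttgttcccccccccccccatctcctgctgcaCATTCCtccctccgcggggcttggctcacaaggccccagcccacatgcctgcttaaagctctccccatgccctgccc
Mybpc3: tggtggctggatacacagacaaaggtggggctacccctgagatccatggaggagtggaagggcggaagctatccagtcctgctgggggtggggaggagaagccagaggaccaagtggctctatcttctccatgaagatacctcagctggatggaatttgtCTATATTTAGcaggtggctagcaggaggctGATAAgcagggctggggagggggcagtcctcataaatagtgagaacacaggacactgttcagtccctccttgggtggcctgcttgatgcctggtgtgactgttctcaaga
Myl2: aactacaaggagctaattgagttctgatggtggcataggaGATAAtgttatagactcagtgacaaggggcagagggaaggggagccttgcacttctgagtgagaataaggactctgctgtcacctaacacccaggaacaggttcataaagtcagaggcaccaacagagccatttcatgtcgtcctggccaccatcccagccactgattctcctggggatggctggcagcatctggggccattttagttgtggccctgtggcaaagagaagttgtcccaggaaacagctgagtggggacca
Actc1: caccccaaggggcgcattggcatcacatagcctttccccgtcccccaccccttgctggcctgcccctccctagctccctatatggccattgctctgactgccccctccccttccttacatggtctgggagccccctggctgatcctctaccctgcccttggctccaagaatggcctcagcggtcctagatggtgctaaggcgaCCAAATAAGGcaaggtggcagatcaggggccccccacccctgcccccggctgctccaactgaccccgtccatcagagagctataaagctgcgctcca
The positions are chr1:135836084-135836383 on the plus strand for Tnnt2, chr2:91117894-91118193 on the plus strand for Mybpc3, chr5:122092474-122092773 on the plus strand for Myl2 and chr2:114052826-114053125 on the minus strand for Actc1. These are positions in another build than the mm9 of the lists, so the listed regions were not placed on them.

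The Actc1 promoter held 1 CArG box, CCAAATAAGG, at -47 from the start. The Mybpc3 promoter held 1 MEF2 site, CTATATTTAG, at -90 and 1 GATAA at -60. The Tnnt2 promoter held 2 GATAA matches, both read on the opposite strand as TTATC, at -245 and -166, and 1 CATTCC at -27. The Myl2 promoter held 1 GATAA at -210. Over all 32851 promoters of that length in the table, a CArG box stood in 1.63%, a MEF2 site in 3.19%, a GATAA in 25.4% and a CATTCC in 14.7%. No motif was common to all 4 promoters, and a match is a run of letters and not a measured binding site.

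The first question was whether border zone chromatin was less open than sham at these genes on each day. Summed over the listed regions of a window, border zone tags were below sham tags for each of the 4 genes on each of the 3 days, although for Tnnt2 on day 4 the counting interval included equality. Day 4 gave 8782 sham against 6049 border zone tags over all 4 windows, day 7 gave 12248 against 7207, and day 14 gave 38343 against 28953. Sham exceeded the border zone by a fold of 1.45 on day 4 (95% interval 1.4 to 1.5), of 1.7 on day 7 (1.65 to 1.76) and of 1.32 on day 14 (1.3 to 1.35). In log2 units these ratios of summed tags were -0.54, -0.76 and -0.41, where the sums over all listed regions gave -0.1, -0.07 and 0.01. The median of single regions in the windows was -0.31, -0.61 and -0.22, against -0.09, -0.14 and 0.03 for all listed regions. Sham was higher in 13 of 23 single regions on day 4, 30 of 36 on day 7 and 23 of 33 on day 14. Below the median of all listed regions of the day, which splits those evenly, lay 13 of 23, 29 of 36 and 23 of 33. The count of day 4 is therefore near an even split. The border zone values are the authors' scaled tags, except on the non-differential list of day 4, which holds unscaled counts. That list has 17 of the 23 regions of day 4, so the sums of that day mix both kinds. Intervals are exact binomial intervals of the unscaled whole tags, and they cover counting error only. In nuclei pooled from tissue, fewer nuclei with an open region and less opening per nucleus cannot be told apart.

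**Figure D1:**
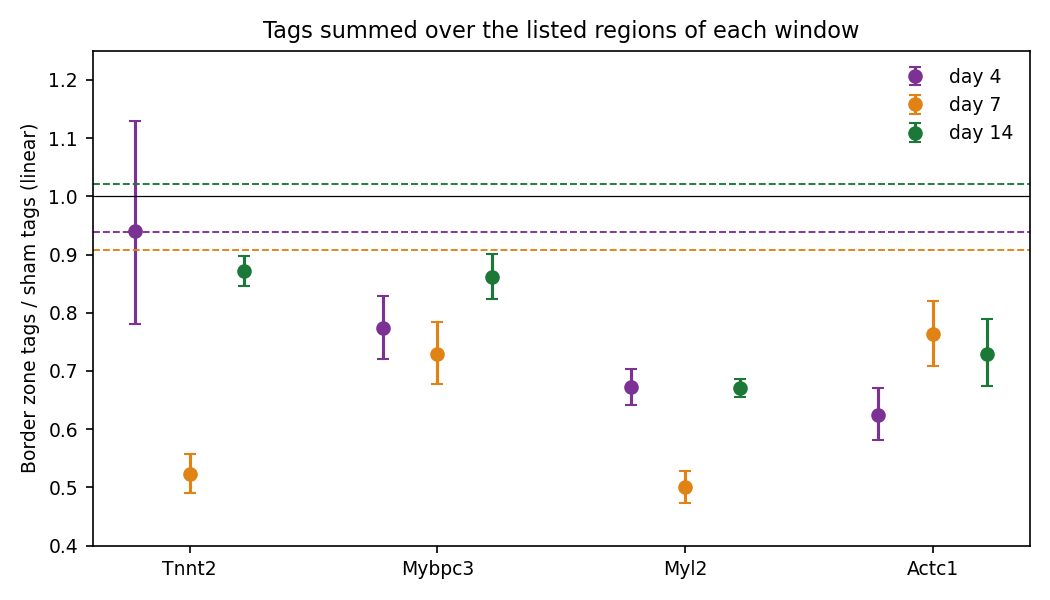
Border zone tags divided by sham tags, summed over the listed regions of each gene window, on a linear axis that starts at 0.4, with 1 point per gene and day. Bars are exact 95% binomial intervals for counting error, the solid line marks equality and each dashed line marks the median of all listed regions of the day in the same colour; every point lies below equality, with the lowest for Myl2 at 0.5 and Tnnt2 at 0.523 on day 7.

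For each day the authors listed regions as higher in sham or higher in the border zone. The smallest fold on these lists was 1.75 on each day, a value read from the lists themselves. On day 4, 5 of the 23 regions in the windows were on the sham-higher list, where 7.37% of all listed regions were. On the border zone-higher list of day 4 was 1 of the 23, against 12.2% of all. On day 7, 12 of 36 were sham-higher against 22.0% of all, and 1 of 36 was border zone-higher against 17.5%. On day 14, 5 of 33 were sham-higher against 6.75%, and 3 of 33 were border zone-higher against 13.4%. Over the 3 days 22 regions were sham-higher, 5 border zone-higher and 65 were on neither list. The Myl2 window had 9 sham-higher regions and 0 border zone-higher regions, Mybpc3 had 5 and 1, Tnnt2 had 5 and 3, and Actc1 had 3 and 1. Regions of 1 window lie side by side and share their libraries, so these counts describe the windows and were given no test.

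**Figure D2:**
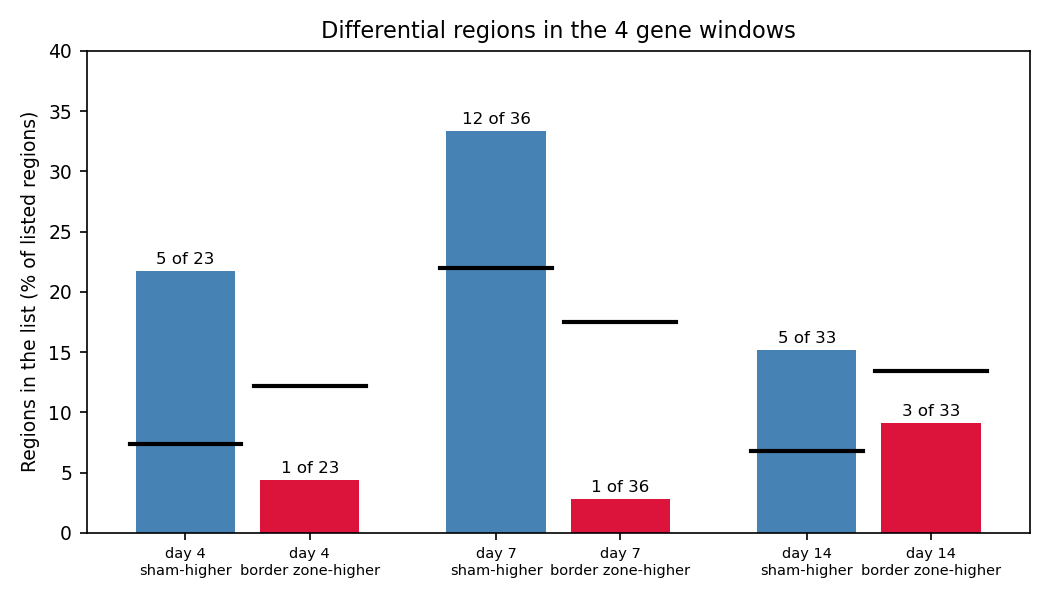
Share of the listed regions in the 4 windows, in percent, that the authors listed as sham-higher (blue bars) or border zone-higher (red bars) on each day, with black lines at the share among all listed regions of that day. The sham-higher share lies above its line on all 3 days, with 5 of 23, 12 of 36 and 5 of 33 regions, and the border zone-higher share lies below its line on all 3 days.

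Myl2, the ventricular light chain gene, had the most sham tags of the 4 windows on every day. The Myl2 window had 4605 sham and 3096 border zone tags on day 4 over 18.5 kb of listed regions, a 1.49-fold higher sham value (1.42 to 1.56). On day 7 it had 4819 and 2408 tags over 21.0 kb, a 2.0-fold higher sham value (1.89 to 2.11). On day 14 it had 20682 and 13865 tags over 21.0 kb, 1.49-fold higher in sham (1.46 to 1.53). The 3 intervals all lay above 1, and the interval of day 7 did not overlap those of the other days. They cover counting error only and the listed regions differ between days, so the difference between days was not tested.

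The core of Myl2 signal was a stretch between 122552251 and 122564750 on chromosome 5. On day 4 the region chr5:122556751-122559750 had 939 sham and 487.9 border zone tags, 1.92-fold higher in sham (1.72 to 2.16). On day 7 the region chr5:122552251-122560750, at 8500 bp the widest of the 92, had 2874 and 1163.8 tags, 2.47-fold higher in sham (2.29 to 2.67), and held 59.6% of the sham tags of the window. On day 14 the region chr5:122557251-122560750 had 8969 and 4686.7 tags, 1.91-fold higher in sham (1.84 to 1.99). These 3 regions overlap, and this was the 1 place in the 4 windows on the sham-higher list of every day.

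The difference did not extend evenly along the Myl2 window. In the upper part of the core, chr5:122560751-122564750 had 2543 sham and 2483.2 border zone tags on day 14. Its interval of 0.964 to 1.09 for the fold included 1, and it was chosen after its values were seen. A second strong stretch at chr5:122541251-122545750 had 1733 and 1245.0 tags on day 4, the most sham tags in the window that day, and was 1.39-fold higher in sham (1.29 to 1.5). On day 7 its main region chr5:122542251-122545250 was on the sham-higher list with 720 and 347.5 tags, a 2.07-fold difference (1.79 to 2.4). On day 14 the same coordinates had 3590 and 2322.8 tags, 1.55-fold higher in sham (1.46 to 1.64) and below the smallest fold of the lists. The largest listed fold of the window was in a weak region, chr5:122546751-122547750 on day 4, with 36 sham and 14.5 border zone tags, 2.49-fold higher in sham and an interval of 1.31 to 4.99. At the upper end of the window, chr5:122586251-122587750, also chosen after its values were seen, had 121 sham and 158.0 border zone tags on day 4. Its day 7 region, chr5:122586251-122587250, had 76 and 59.3 tags, with an interval of 0.873 to 1.9 for the fold.

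Mybpc3, the myosin-binding protein gene, had smaller folds than Myl2 on each day. Its window had 1821 sham and 1408 border zone tags on day 4 over 14.5 kb, 1.29-fold higher in sham (1.21 to 1.39), although 3 of its 7 regions had more sham tags and the median of the regions was 0.06 on the log2 scale. It had 2100 and 1530 tags on day 7 over 18.5 kb, 1.37-fold higher in sham (1.28 to 1.48), and 4843 and 4170 tags on day 14 over 11 kb, 1.16-fold higher in sham (1.11 to 1.22). The intervals of days 4 and 7 overlapped, and that of day 14 overlapped that of day 4 only at its lower end. As for Myl2, the difference between days was not tested.

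The strongest Mybpc3 regions lay between 90975751 and 90981750 on chromosome 2, and none of them that held the most sham tags of a day was on a differential list. On day 4 chr2:90975751-90981750, 6000 bp wide, had 1028 and 805.0 tags, 1.28-fold higher in sham (1.16 to 1.4). On day 7 chr2:90977751-90979750 had 485 and 369.1 tags, 1.31-fold higher (1.13 to 1.53), and on day 14 chr2:90976251-90979750 had 2153 and 1868.9 tags, 1.15-fold higher (1.08 to 1.23). The sham-higher regions of the window had fewer sham tags than the strongest region of their day, although chr2:90975751-90977750 on day 7 lay within the strongest stretch. On day 7 chr2:90969751-90970750 had 96 and 48.5 tags, 1.98-fold higher in sham (1.34 to 2.99), and chr2:90975751-90977750 had 259 and 132.0 tags, 1.96-fold higher (1.55 to 2.5). On day 4 chr2:90968751-90969750 had 43 and 21.7 tags, 1.98-fold higher (1.15 to 3.51). The 1 border zone-higher region, chr2:90937751-90939250 on day 7, had 27 sham and 60.6 border zone tags, 2.24-fold higher in the border zone (1.36 to 3.76). On day 14 all 6 regions of the window were on the non-differential list, with log2 values from -0.29 to -0.04.

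Tnnt2, the troponin T gene, had the widest spread of daily ratios of the 4 genes. Its window had 236 sham and 222 border zone tags on day 4 over 3.5 kb, and the fold of 1.06 had an interval of 0.881 to 1.28. On day 7 it had 3312 and 1731 tags over 14.5 kb, 1.91-fold higher in sham (1.79 to 2.04), and on day 14 it had 11007 and 9597 tags over 20.0 kb, 1.15-fold higher in sham (1.11 to 1.18). Day 4 does not cover the same stretch as the later days. It had 3 listed regions in the window, the strongest of them chr1:137726751-137728250 with 156 sham and 133.0 border zone tags, and none of the 3 overlapped the strong stretch of days 7 and 14 between 137748751 and 137755250. A region missing from the lists has no measured value, so that stretch cannot be compared on day 4.

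In the strong stretch, sham was higher on both later days. On day 7 chr1:137749251-137754250, 5000 bp wide, had 1830 and 796.0 tags, 2.3-fold higher in sham (2.09 to 2.53), with 55.3% of the sham tags of the window. On day 14 chr1:137750751-137752750 had 3480 and 1799.0 tags, 1.93-fold higher in sham (1.81 to 2.06). The next region on day 14, chr1:137752751-137755250, which was chosen after its values were seen, had 2276 and 2155.5 tags and an interval of 0.99 to 1.13 for the fold. The other sham-higher regions named on day 7 were chr1:137730251-137732750, with 246 and 107.8 tags, and chr1:137755751-137756750, with 54 and 22.9 tags. All 9 listed regions of Tnnt2 on day 7 had more sham than border zone tags.

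On day 14 the upper part of the Tnnt2 window went the other way. There, 3 nearby regions were on the border zone-higher list: chr1:137759251-137761250 with 226 sham and 534.8 border zone tags, chr1:137755251-137756750 with 198 and 427.8, and chr1:137757751-137758750 with 130 and 227.6. They were 2.37-fold (2.0 to 2.8), 2.16-fold (1.8 to 2.6) and 1.75-fold (1.38 to 2.22) higher in the border zone. Between them chr1:137758751-137759250, chosen after its values were seen, was the densest region of that part with 783 sham and 1051.7 border zone tags in 500 bp, 1.34-fold higher in the border zone (1.21 to 1.49). On day 7 the overlapping region chr1:137758251-137759750 had 248 and 206.1 tags, 1.2-fold higher in sham with an interval of 0.98 to 1.48. The window sum of day 14 is therefore made of regions on both sides of equality, with 6 of 13 higher in sham, and the median of its regions was 0.26 on the log2 scale against -0.20 for the sum.

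**Figure D3:**
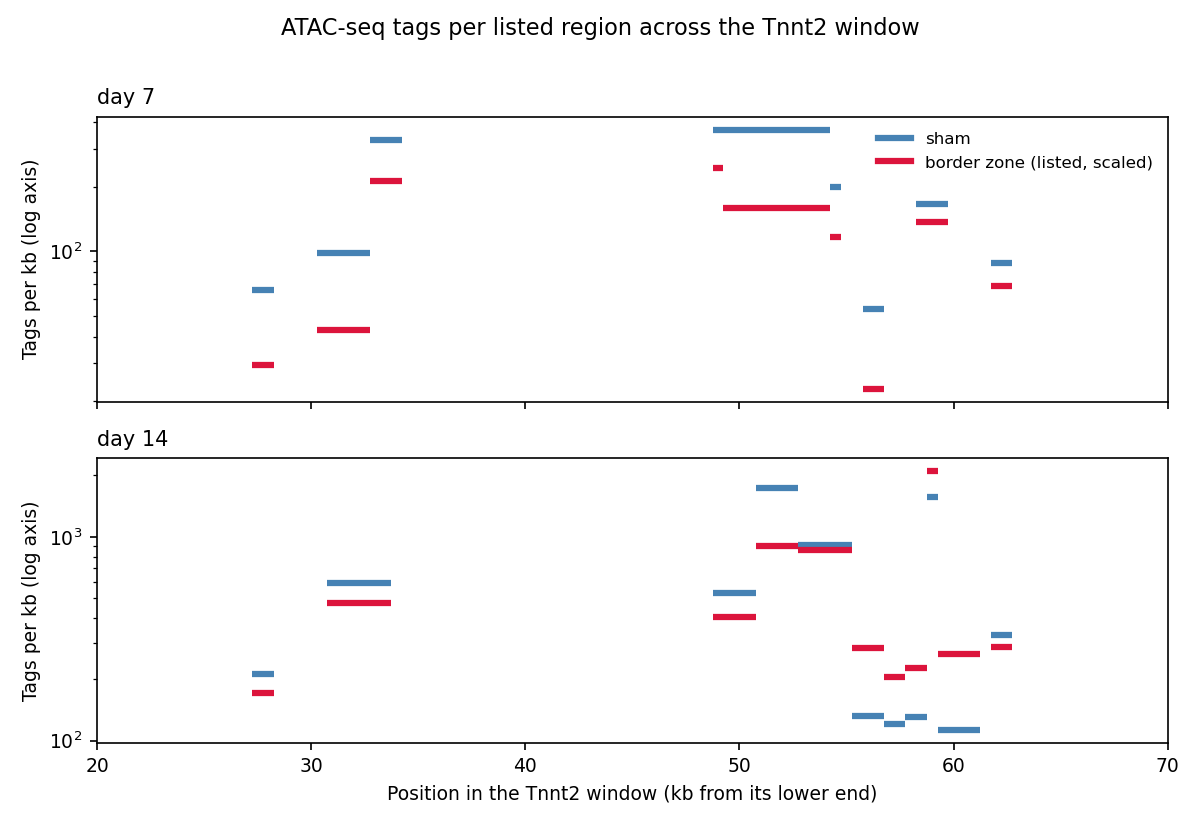
Sham (blue) and listed border zone (red) tags per kb on a log axis for each listed region of the Tnnt2 window on days 7 and 14, by position in kb from the lower end of the window; the part below 20 kb is not drawn, and its 2 regions of day 14 lie on the border zone side. Sham lies above the border zone throughout day 7, whereas on day 14 a run of regions above the strong stretch, 3 of them border zone-higher, has the border zone above sham.

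Actc1, the cardiac actin gene, had the fewest listed regions. Its window had 2120 sham and 1323 border zone tags on day 4 over 13.0 kb, 1.6-fold higher in sham (1.49 to 1.72), although 2 of its 5 regions had more sham tags and the median of the regions was 0.19 on the log2 scale. It had 2017 and 1538 tags on day 7 over 10 kb, 1.31-fold higher in sham (1.22 to 1.41), and 1811 and 1320 tags on day 14 over 3.5 kb, 1.37-fold higher in sham (1.27 to 1.48). The interval of day 4 lay just above those of the later days, which overlapped each other, and the difference between days was again not tested.

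One broad region carried most Actc1 tags on days 4 and 7. On day 4 chr2:113867751-113874750, 7000 bp wide, had 1549 and 765.0 tags, was 2.02-fold higher in sham (1.85 to 2.22), and held 73.1% of the sham tags of the window. Its whole border zone tags could be recovered only to between 697 and 726, and 711 was used. On day 7 the overlapping chr2:113871251-113877750 had 1634 and 1348.3 tags, 1.21-fold higher in sham (1.12 to 1.31), and was on the non-differential list. On day 14 no region of that stretch was listed, so it has no measured value, and the region with the most sham tags was chr2:113882251-113884750 with 1493 and 1157.3 tags. At chr2:113895751-113898750 sham was higher on every day. Its listed part was 3000 bp wide on day 4, 2500 bp on day 7 and 1000 bp on day 14, so the days cover different stretches. That locus had 433 and 331.0 tags on day 4, 1.31-fold higher in sham (1.13 to 1.51), 220 and 87.6 on day 7, 2.51-fold higher (1.9 to 3.37), and 318 and 163.2 on day 14, 1.95-fold higher (1.57 to 2.43). The border zone-higher region, chr2:113912751-113913750 on day 4, had 52 sham and 120.1 border zone tags, 2.31-fold higher in the border zone (1.64 to 3.28).

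**Figure D4:**
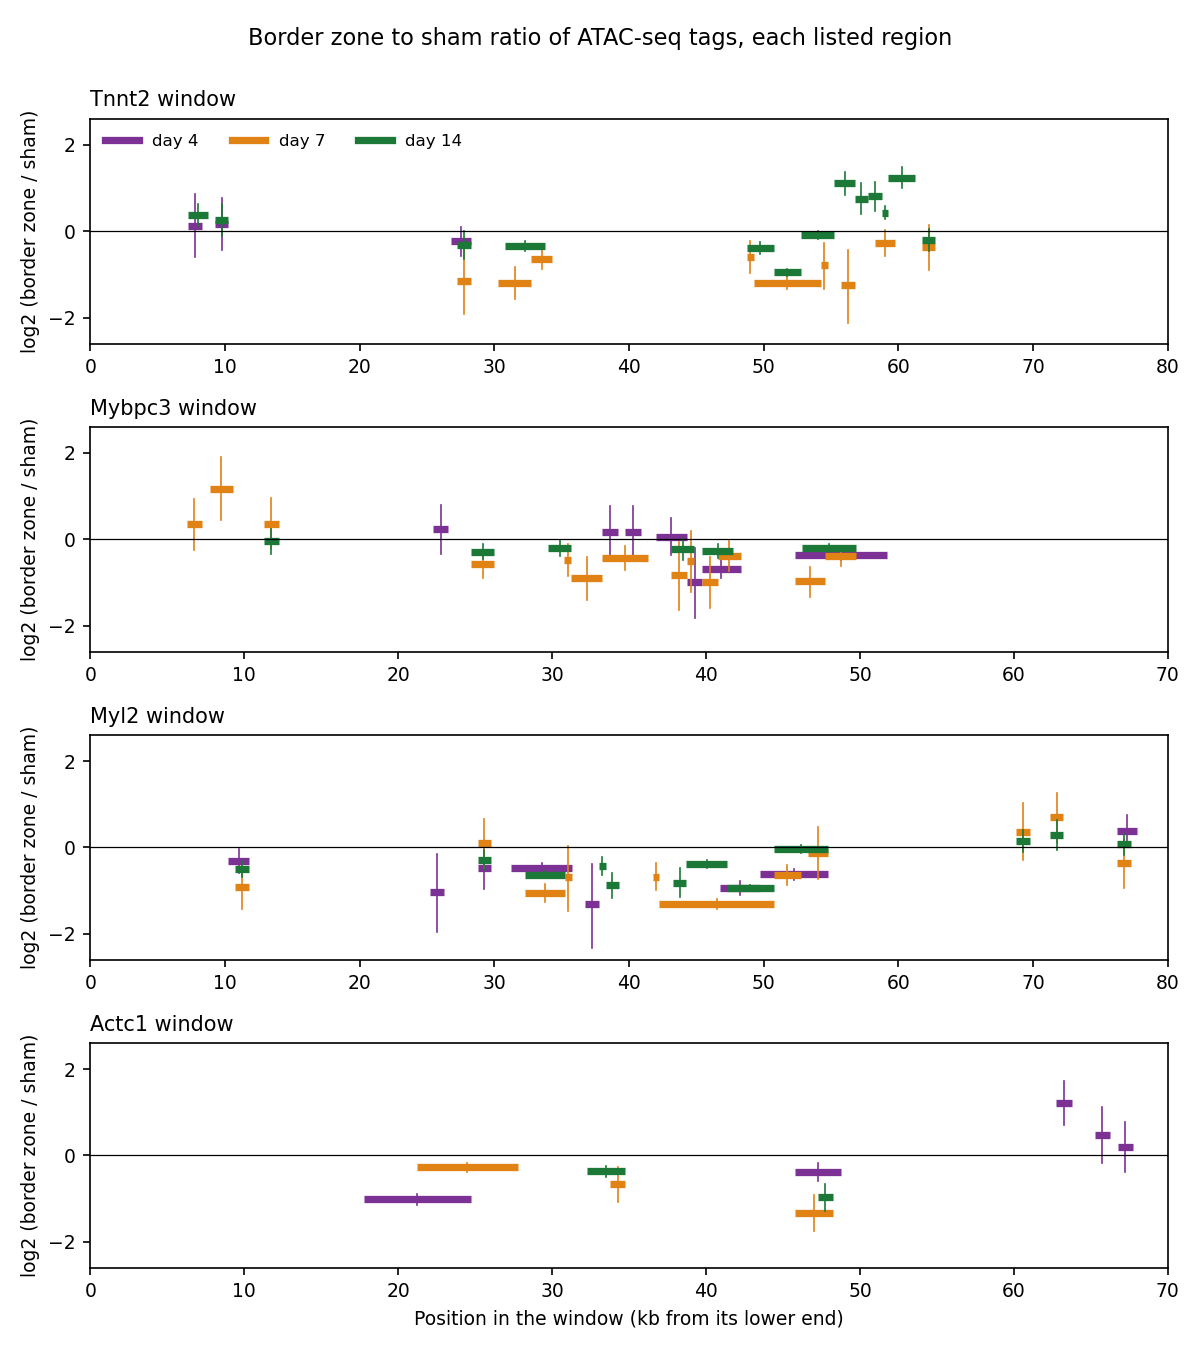
Log2 ratio of listed border zone to sham tags for each of the 92 regions, by position in kb from the lower end of its gene window. Thick bars span the region, thin vertical lines are exact 95% binomial intervals for counting error, and colours mark the day; most regions lie below 0, and the border zone-higher regions stand out above the strong stretch of the Tnnt2 window on day 14 and near the upper end of the Actc1 window on day 4, with 1 more near the lower end of the Mybpc3 window on day 7.

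Levels between genes were compared per length, as sham tags per kb of listed region and per 1000000 listed tags of the library. Myl2 had 42.1, 59.5 and 70.7 of these units on days 4, 7 and 14. Tnnt2 had 11.4, 59.2 and 39.5, Actc1 had 27.6, 52.3 and 37.1, and Mybpc3 had 21.3, 29.4 and 31.6. The 3 daily sham values of Myl2 lay above all 3 of Mybpc3, whereas the ranges of Tnnt2 and Actc1 overlapped each other and those of both thick filament genes. In the border zone the same level was 30.1, 31.0 and 46.7 for Myl2, 11.6, 32.3 and 33.9 for Tnnt2, 17.7, 41.6 and 26.6 for Actc1, and 17.7, 22.4 and 26.9 for Mybpc3. In the border zone the ranges of all 4 genes overlapped except that Myl2 again lay above Mybpc3 on every day. The listed length differed between days, so these levels rest on different stretches.

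The daily log2 ratios followed different orders in the 4 genes. Tnnt2 had -0.09, -0.94 and -0.20 on days 4, 7 and 14, Myl2 had -0.57, -1.0 and -0.58, and Mybpc3 had -0.37, -0.46 and -0.22. These 3 genes had their lowest ratio on day 7. Over all listed regions the same ratio of summed tags was -0.1, -0.07 and 0.01, lowest on day 4. Only the median of single regions over all listed regions was lowest on day 7, at -0.14. Actc1 had -0.68, -0.39 and -0.46, with its lowest ratio on day 4. Over the 3 days the mean was -0.72 ± 0.25 (SD, n = 3 days) for Myl2, -0.51 ± 0.15 for Actc1, -0.41 ± 0.46 for Tnnt2 and -0.35 ± 0.12 for Mybpc3. Neighbours in this order differed by less than the larger of their SDs. An exact sign-flip permutation test over the 3 days, two-sided, gave p = 0.25 for each gene, which is the smallest value that 3 pairs allow. Day 4 differs from the later days in mouse line, isolation of nuclei and aligner, so these and the time after surgery cannot be told apart.

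Of the 38 loci that overlapping regions of the days formed in the 4 windows, 10 were listed on all 3 days, which is 26.3%, and 32.4% of all loci were. Of the others, 15 were listed on 2 days and 13 on 1 day, so a value on every day exists for few of the loci.

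Overlapping regions of the 3 days were joined into loci to test the conditions over all 6 libraries with day as a block, in edgeR's quasi-likelihood test on whole tags. A locus took the tags of its listed regions, so its days could cover different stretches. The 10 loci of the windows that were listed on all 3 days were tested among 19733 such loci. With Benjamini-Hochberg adjustment over all of these, 2 of the 10 were lower in the border zone, where 2.32% of all loci were, and 0 were higher, where 7.66% of all were. At an unadjusted p under 0.05, 3 of the 10 were lower, as were 11.8% of all loci, and 0 were higher, as were 15.2%. DESeq2 with the same terms called 1 of the 10 lower, against 0.573% of all, and 0 higher, against 5.18%. The Actc1 locus chr2:113895751-113898750 had a log2 fold change of -0.65 (SE 0.19, adjusted p = 0.0329 in edgeR). The Myl2 core, chr5:122552251-122564750, had -0.64 (SE 0.19, adjusted p = 0.0336 in edgeR). Without day 4 the count of lower loci in edgeR was 3, without day 7 it was 0 and without day 14 it was 0. The share of all loci called lower moved in the same direction, to 10.8%, 0.649% and 0.106%. The Actc1 locus had -0.49 without day 7 (adjusted p = 0.186 in edgeR) and -0.57 without day 14 (adjusted p = 0.512 in edgeR), and DESeq2 gave it an adjusted p of 0.0889. The Myl2 core had -0.54 without day 7 (adjusted p = 0.0598 in edgeR) and -0.71 without day 14 (adjusted p = 0.479 in edgeR), and DESeq2 size factors in edgeR gave it an adjusted p of 0.0561. Over all alternatives the adjusted p lay between 0.000902 and 0.997 for the Actc1 locus and between 0.00433 and 0.997 for the Myl2 core.

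The other 8 loci did not pass. Myl2 chr5:122541251-122545750 had -0.49 (SE 0.17, adjusted p = 0.0699 in edgeR). For Mybpc3 the locus with the smallest p was chr2:90969751-90972250 at -0.29 (SE 0.17, adjusted p = 0.286 in edgeR), and the one with the most tags, chr2:90975751-90981750, had -0.16 (SE 0.17). The single Tnnt2 locus listed on all days, chr1:137726751-137728250, had -0.28 (SE 0.22, adjusted p = 0.413 in edgeR), and lies outside the strong stretch of that gene. Of the 10 loci, 9 were below 0, as were 10019 of all 19733, and their median was -0.28 beside -0.01 over all loci tested. Of the 10, 5 lie in the Myl2 window and 3 in the Mybpc3 window, so the count rests mostly on 2 genes.

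Whole windows were tested in the same way, together with 80 kb tiles of the rest of the genome, 10970 units in all. Border zone tags were lower in the Myl2 window, with a log2 fold change of -0.61 (SE 0.14, adjusted p = 0.0332 in edgeR). Among all units 0.41% were called lower and 2.5% higher. Actc1 had -0.42 (SE 0.13, adjusted p = 0.0914 in edgeR), Tnnt2 had -0.31 (SE 0.16, adjusted p = 0.244 in edgeR) and Mybpc3 had -0.23 (SE 0.13, adjusted p = 0.277 in edgeR), and these 3 did not pass. Without day 4, on which the strong stretch of Tnnt2 is not listed, Tnnt2 had -0.45 with an adjusted p of 0.0166 in edgeR, in a fit that called 11.5% of all units lower. Without day 7 Tnnt2 had -0.08 with an adjusted p of 0.892, and without day 14 it had -0.40 with an adjusted p of 0.669. The Myl2 window had -0.50 without day 7, with an adjusted p of 0.0619, and -0.66 without day 14, with an adjusted p of 0.359, so that its call was lost. Those fits called 0.119% and 0.00912% of all units lower. Over all alternatives the adjusted p lay between 0.000239 and 1.0 for Myl2 and between 0.0166 and 1.0 for Tnnt2. With 2 residual degrees of freedom, and fewer in the fits without a day, the 3 pairs of libraries alone fix the spread of a unit poorly. Both edgeR and DESeq2 also borrow spread from all units fitted, so these p-values do not rest on the 3 pairs alone.

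The strongest regions of the windows were set beside equally strong regions elsewhere, a description chosen after the data were seen. Among the 1% of regions with the most whole tags, 4 of 469 on day 4, 3 of 350 on day 7 and 7 of 410 on day 14 lay in the windows. Each of these had a log2 ratio below the median of their group, which was -0.23, 0.05 and -0.02 on the 3 days, and the medians of the regions in the windows were -0.55, -1.2 and -0.38. Of the 469 strongest regions on day 4, 3 were sham-higher, and 1 of those was the broad Actc1 region. Of the 350 on day 7, 42 were sham-higher, among them the widest Myl2 region and the strong Tnnt2 region. Of the 410 on day 14, 16 were sham-higher, again with 2 of them in the Myl2 and Tnnt2 windows. Among regions at least 3 kb wide, 6 of 1354, 5 of 722 and 6 of 677 lay in the windows. Each of these was below the median of its group, which was -0.14, -0.11 and -0.0 on the 3 days. On day 14 the highest region of the windows was at -0.03 in both groups, so it lay barely below either median. Some regions, such as the broad Actc1 region of day 4, are in both groups, so the 2 comparisons are not separate.

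The windows reach past the genes. In the GRCm38.p6 gene order the protein-coding neighbours are Lad1 and Pkp1 for Tnnt2, Spi1 and Madd for Mybpc3, Cux2 and Ccdc63 for Myl2, and Gjd2 and Aqr for Actc1. No mm9 annotation was used here, so whether a region lies in an exon, an intron, a promoter or a neighbouring gene was not determined. For the same reason the heart muscle identity of the nuclei could not be checked against marker genes.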

How the data were processed

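The submitters' processing notes name mm9 and bedtools for all days, Bowtie2 for day 4 and BWA for days 7 and 14, and per the labels day 4 had pairs of 76 bp reads. The region caller, versions and handling of duplicates are not given in the sources used. Per the file headers, each deposited list gives regions with sham tags, which are counts, and border zone tags, which the authors deposited as a signal scaled to sham. In the lists other than the non-differential one of day 4, whose border zone tags are deposited counts, 97.6% of 85106 values were a whole number times 1 factor, and the others were brought back to whole tags as sums of such terms. The main factors were 1.0345, 1.3469 and 1.3712 on days 4, 7 and 14, and a smaller number of values took 1.1014, 1.1667 and 1.1809. The tags in listed regions, which are not the full depth, came to 5907384 in sham against 5469972 whole border zone tags for day 4, 3858892 against 2743696 for day 7, and 13936013 against 10329856 for day 14.

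Folds use the listed values, and intervals are exact Clopper-Pearson 95% intervals. Regions sharing 1 bp or more across days formed 1 locus. edgeR 4.0.16 (TMM, quasi-likelihood, condition and day, false discovery rate 5%) and DESeq2 1.42.0 in R 4.3.3 were fitted to whole tags of all loci or tiles. The edgeR fit was also run on simulated tags with a fixed spread and the same fold on every day. That run cannot check p-values for pairs that differ between days. Pairs come from the shared day. Regions named are, per gene, the strongest of each day, the widest, and up to 3 per direction with the largest listed fold. Other regions are marked as chosen after their values were seen. Loci named are those with the most tags and the smallest p. The genes, windows and tests were chosen with earlier results of these data known.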

Additional observations from a re-analysis of the deposited data

Results flagged for a closer look

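One locus of the Tnnt2 window, chr1:137755251-137756750, was on opposite differential lists on days 7 and 14. On day 7 its region, chr1:137755751-137756750, had 54 sham and 22.9 listed border zone tags, a log2 ratio of -1.24. On day 14 the locus had 198 and 427.8 tags, a log2 ratio of 1.11. With 1 library per condition and day, the difference between the days was not tested. The whole border zone tags behind these values were 17 and 312, and the counting intervals of the border zone to sham fold were 0.23 to 0.743 on day 7 and 1.8 to 2.6 on day 14. The regions of the days differ in extent, and the part this plays was not tested.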

How the results depend on the processing

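For the sum of the 4 windows, the log2 ratio kept its direction under every scaling and window tried. On day 4 it was -0.45 with 1 factor from the listed tags, -0.59 in windows shortened by 10 kb at each end and -0.31 as the median of single regions. On day 7 it was -1.19 with unscaled tags, -0.70 with 1 factor from the listed tags and -0.61 as the median of regions. On day 14 it was -0.86 with unscaled tags and -0.22 as the median of regions. The unscaled values include the difference in tags between the libraries over all listed regions. That was 3858892 sham against 2743696 border zone tags on day 7, and 13936013 against 10329856 on day 14. Their direction is therefore no separate check. The values for single genes that changed sign were Tnnt2 on day 4 to 0.02 (1 factor from listed tags) and to 0.13 as the median of regions, and, as medians of regions, Tnnt2 on day 14 to 0.26, Mybpc3 on day 4 to 0.06 and Actc1 on day 4 to 0.19. The cause was not tested.

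With a fold of at least 2.0, the sham-higher regions numbered 3, 7 and 0 on days 4, 7 and 14. In the shortened windows the border zone-higher regions numbered 0 on day 4 and 0 on day 7, since those regions lie at the window ends. Of the loci, 1 was lower in the border zone with DESeq2, 1 with DESeq2 size factors in edgeR, and 0 to 3 when each day was left out. Library sizes from listed tags without TMM moved the median of all loci from -0.01 to -0.16 and gave 3 loci, among 799 of all 19733 called lower. With no replicate block, which ignores that the libraries are paired by day, 0 loci passed, in the windows and among all. Under that fit the Myl2 window had -0.62 (adjusted p = 1.0 in edgeR). Without TMM it had -0.67 (adjusted p = 0.0529 in edgeR), and it ranged from -0.68 to -0.50 when each day was left out. The Tnnt2 window then ranged from -0.45 to -0.08. The weak Myl2 locus starting at 122538751, at -0.04, ranged from -0.20 to 0.08 and was 0.05 without day 14. Weak regions are limited by their tags. On the differential lists the larger tag value of a region was at least 35, 50 and 150 on days 4, 7 and 14. A region on none of the lists was not measured.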
